A study of Mus musculus with 6 samples.

Results

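Heat shock proteins are molecular chaperones, proteins that hold, fold or refold other proteins and that many cells make in larger amounts under heat and other stress. The genes described here were Hspa1a, Hspa1b, Hspa5, Hspa8, Hspb1, Dnajb1, Hsp90aa1, Hsp90ab1, Hsph1 and Hspd1, and every probe of the whole-brain array table carrying one of these symbols was taken. The table held 25697 probes under 18138 gene symbols, and 13 of them belonged to 9 of the 10 genes. No probe carried the symbol Hspa1b. The Hsph1 probe was listed under the older symbol Hsp105 and was matched through the gene's synonyms. Each signal came with a detection p-value, which is small where few of an array's negative controls reach that brightness. The test took in probes below 0.05 by this measure on 3 or more of the 6 arrays, and 11 probes of 8 genes met that.

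Whole brains of male FVB mice (FVB/N in the study's methods) at postnatal day 6 were compared in 2 groups of 3 arrays each. Both groups carried a single copy of the Signalox-hSRY transgene at the H11 locus, driven by the ubiquitous CAG promoter. In hSRY-OFF mice the transgene was unrecombined, so that a loxP-flanked DsRed2 cassette was transcribed in place of human SRY. In hSRY-ON mice that cassette had been removed in the early embryo by Cre from the oocyte of a Ddx4-Cre mother, which placed FLAG-tagged human SRY and EGFP under CAG in every tissue, and the hSRY-ON mice chosen for the arrays did not carry Ddx4-Cre themselves. The groups therefore differed in DsRed2 and EGFP as well as in SRY, and the hSRY-ON pups were described in the study as small, poorly fed and dying in early life, all of which goes with the genotype in this comparison. No transgene probe was analysed here.

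Most heat shock genes of the cytosol answer to the transcription factor HSF1, which binds repeated units of the sequence GAA and its complement TTC, the heat shock element, in their promoters. The HSP70 proteins (Hspa1a, Hspa1b, Hspa8) bind unfolded stretches of client proteins with the help of J-domain partners such as Dnajb1 and of exchange factors such as Hsph1, and the HSP90 proteins (Hsp90aa1, Hsp90ab1) take over many of these clients. Hspa5, also called BiP, is the HSP70 of the endoplasmic reticulum, Hspd1 is the barrel-forming HSP60 of mitochondria, and Hspb1 is a small heat shock protein that holds unfolding proteins without ATP. In neurons Hspa8 also removes the clathrin coat from recycling synaptic vesicles.

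The promoter windows of the members, 250 bases before to 50 bases after an annotated start of transcription, were read for the element in 3 spellings, each on both strands: the 3-unit element GAANNTTCNNGAA, and the 2-unit pieces GAANNTTC and TTCNNGAA that it contains. RefSeq windows (GRCm38.p6) were found for 7 of the 10 genes and not for Hsp90aa1, Hsp90ab1 and Hspa8. Of 32817 windows of all genes, 0.603% held the 3-unit element, 7.86% held GAANNTTC and 8.51% held TTCNNGAA. The 3-unit element was found in windows of Hsph1 and Hspd1. The Hsph1 window is shown because Hsph1 was the member that passed the test in the brain, and the Hspd1 window because it was the other member with the 3-unit element. Both lie on the minus strand and are printed 5′ to 3′, with the bases of the element in capitals.
Hsph1, chr5:149636266-149636565: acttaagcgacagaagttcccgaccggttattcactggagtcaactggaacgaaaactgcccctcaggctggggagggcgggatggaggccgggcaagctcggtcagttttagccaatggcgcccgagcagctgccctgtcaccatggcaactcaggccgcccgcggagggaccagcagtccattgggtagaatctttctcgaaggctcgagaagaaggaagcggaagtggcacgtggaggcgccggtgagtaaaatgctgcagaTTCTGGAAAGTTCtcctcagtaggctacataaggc
Hspd1, chr1:55087883-55088182: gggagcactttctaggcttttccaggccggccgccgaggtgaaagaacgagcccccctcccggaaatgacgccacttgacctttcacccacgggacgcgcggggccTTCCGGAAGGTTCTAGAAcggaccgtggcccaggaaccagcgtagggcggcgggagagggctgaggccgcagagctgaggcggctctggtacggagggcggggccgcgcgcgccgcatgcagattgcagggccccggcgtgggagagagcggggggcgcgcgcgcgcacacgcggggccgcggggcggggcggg
In Hsph1 the element lay 15 to 27 bases after the start site, and the other annotated Hsph1 window, which overlaps this one, held the same bases 36 to 48 bases after its own start site. In Hspd1 there were 2 overlapping matches, at -144 to -132 and at -139 to -127 from the start site, and the window of the other annotated Hspd1 start held none. The Hspa1a and Hspa1b windows held GAANNTTC 1 time each, the Hspb1 window held it 2 times, and the Dnajb1 and Hspa5 windows held none of the 3 spellings. These matches describe letters in a window and were not tested for binding.

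The Hspa1a and Hspa1b windows are shown because the genes are near-identical copies, so that a value under either name is uncertain. Over 300 bases they differed at 4 positions and were 98.7% identical. The differing bases are in capitals, both windows lie on the minus strand of chromosome 17, and the sequence of the array probe itself was not used here.
Hspa1a, chr17:34972107-34972406: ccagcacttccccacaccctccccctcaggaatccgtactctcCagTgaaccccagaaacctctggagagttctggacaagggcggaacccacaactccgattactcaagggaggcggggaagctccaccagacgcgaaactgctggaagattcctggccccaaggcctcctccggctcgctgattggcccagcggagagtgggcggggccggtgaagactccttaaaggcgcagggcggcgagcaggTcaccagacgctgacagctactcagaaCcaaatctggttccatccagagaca
Hspa1b, chr17:34959189-34959488: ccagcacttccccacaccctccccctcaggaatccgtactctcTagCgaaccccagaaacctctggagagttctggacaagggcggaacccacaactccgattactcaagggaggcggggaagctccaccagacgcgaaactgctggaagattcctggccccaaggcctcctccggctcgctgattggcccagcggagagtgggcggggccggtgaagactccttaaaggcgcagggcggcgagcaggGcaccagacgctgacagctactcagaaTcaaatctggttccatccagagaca

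The 6 arrays were of like quality. Their median signal lay between 200 and 220, between 13816 and 14377 probes were detected per array, and the correlation of normalized log2 values was 0.9862 to 0.9897 between groups, below the 0.9936 to 0.9940 within hSRY-OFF and the 0.9908 to 0.9930 within hSRY-ON. The labels number the arrays within each group and do not say that littermates were used, and the study calls the array controls age-matched. By its account oocyte Cre recombined the transgene whether or not a pup inherited Ddx4-Cre. Unrecombined carriers would then come from other mothers, so litter and mother cannot be told apart from group. The study describes the samples as biological triplicates. Bead signals were corrected for background, put on the log2 scale, quantile normalized and tested with limma, with Benjamini-Hochberg adjustment over the 14215 probes that passed the detection rule. Levels of different probes were not compared, since probes bind with different strength. Unless a raw or summed signal is named, values below are normalized log2 signals, given for replicates 1, 2 and 3 in that order, and differences are hSRY-ON minus hSRY-OFF.

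Hsph1 was the member that passed the test, and it fell by 32.6% in the hSRY-ON brain. Of the 11 tested member probes 1 was called at an adjusted p under 0.05, where 2.17% of all tested probes were. Hsph1 encodes HSP110, the large relative of HSP70 that exchanges its nucleotide and helps to dissolve aggregates. Among the other probes, 3 had unadjusted p-values under 0.05 without passing the adjustment, which makes 4 of 11 member probes under 0.05, against 20.9% of all tested probes. That count was between 2 and 4 when 1 array was left out, the 2 without hSRY-OFF replicate 3, where 2433 of 14032 probes in all were under 0.05. Over the 11 probes, 5 were higher and 6 lower, with a median of -0.06, against 0.0048 over all tested probes. The 3 values of each group did not overlap for 6 of the 11 member probes, where this held for 27.7% of all tested probes.

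**Figure D1:**
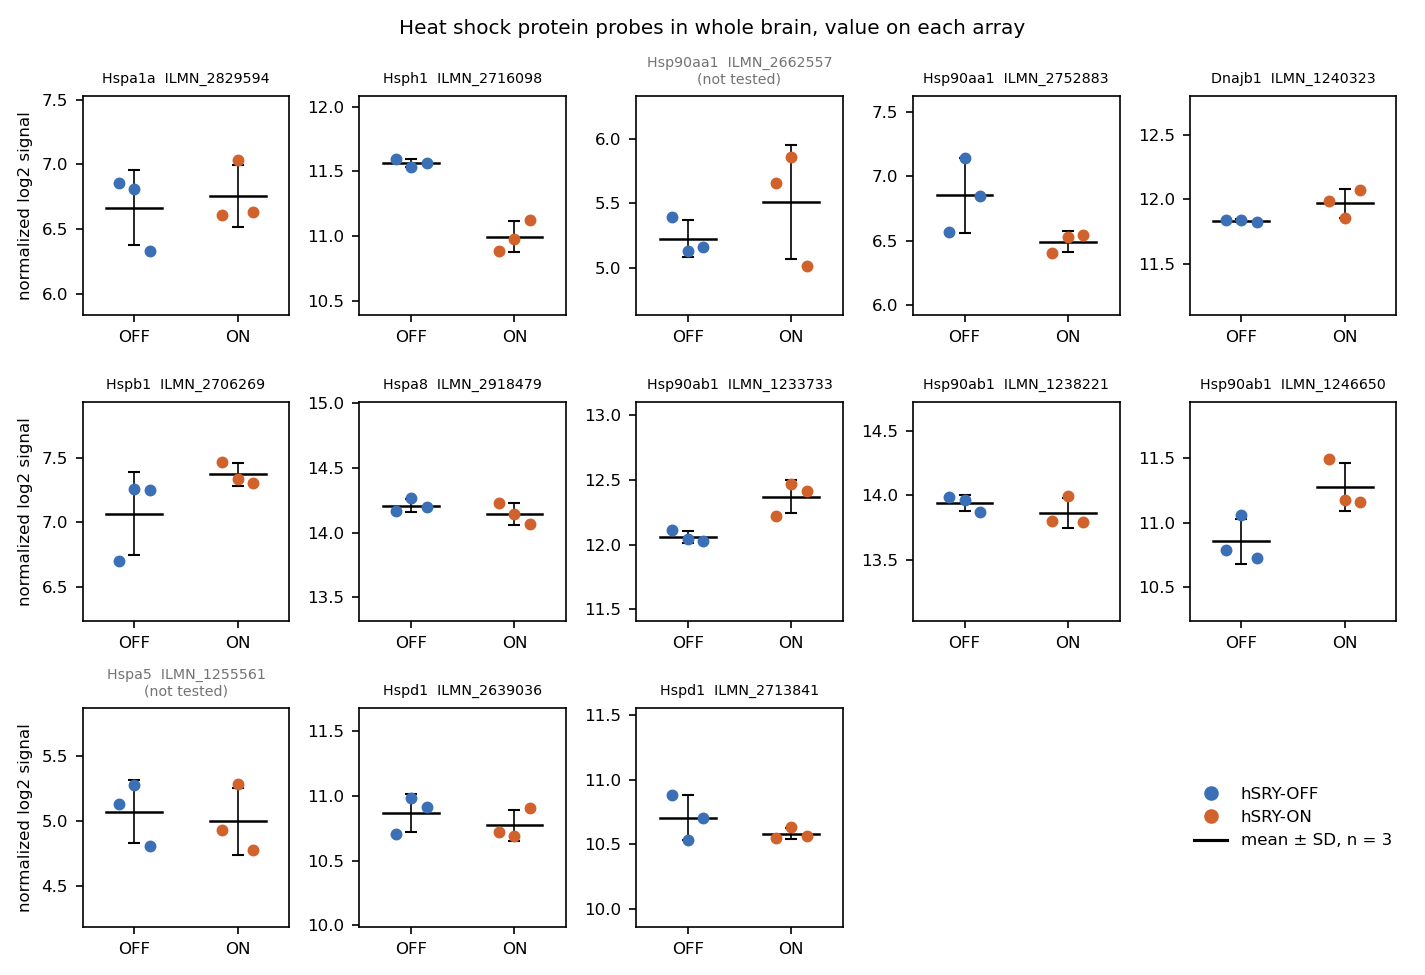
Normalized log2 signal of each of the 13 member probes on each array, with hSRY-OFF in blue and hSRY-ON in orange; bars are the group mean and SD (n = 3), and each vertical axis spans its own range of levels. The hSRY-ON values of Hsph1 and of the tested Hsp90aa1 probe lie wholly below the hSRY-OFF values, those of 2 Hsp90ab1 probes, Hspb1 and Dnajb1 wholly above, and the 2 panels with grey titles were not tested.

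Among the cytosolic inducible genes, Hsph1 (ILMN_2716098) had raw signals of 3643, 3066 and 3035 in hSRY-OFF and of 2082, 2054 and 2297 in hSRY-ON. On the normalized scale these were 11.60, 11.53 and 11.56 against 10.88, 10.98 and 11.12. All 3 hSRY-ON arrays lay below all 3 hSRY-OFF arrays on both scales, and the gap between the groups was wider than the spread within either. The group means were 11.56 ± 0.03 and 10.99 ± 0.12 (SD, n = 3), a log2 fold change of -0.57 (SE 0.09) with a 95% interval of -0.78 to -0.36. The level in hSRY-ON was 0.674 times that in hSRY-OFF (0.583 to 0.779), with an adjusted p of 0.0348 (limma, Benjamini-Hochberg). By the size of its difference Hsph1 stood 564th among the 14215 tested probes. The call ended, with the difference kept between -0.63 and -0.51, when hSRY-OFF replicate 1, 2 or 3 was left out (limma adjusted p of 0.106, 0.113 and 0.104) and when hSRY-ON replicate 1 or 2 was left out (0.0936 and 0.0802), and it held without hSRY-ON replicate 3 (0.0284).

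Hsp90aa1, the stress-inducible HSP90, had 2 probes. ILMN_2752883 read 6.57, 7.14 and 6.84 in hSRY-OFF and 6.40, 6.53 and 6.55 in hSRY-ON. The hSRY-ON values lay wholly below, though the highest of them nearly met hSRY-OFF replicate 1. The difference was -0.36 (SE 0.15), with a 95% interval of -0.70 to -0.01 and a limma adjusted p of 0.229. It was -0.21 without hSRY-OFF replicate 2 and -0.15 without background correction. With the background modelled from the signals alone, at an offset of 50, it was -0.23. The second probe, ILMN_2662557, was detected on 2 hSRY-ON arrays and on no hSRY-OFF array, with raw signals of 201.6, 180.6 and 180.2 against 203.4, 201.0 and 176.7, and was not tested. Its values overlapped and lay near the background, so that the 2 probes could not be set against each other.

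Dnajb1, the J-domain protein that delivers clients to HSP70, read 11.84, 11.84 and 11.82 in hSRY-OFF and 11.99, 11.85 and 12.07 in hSRY-ON. All hSRY-ON values were higher, with hSRY-ON replicate 2 barely above the hSRY-OFF arrays. The difference of 0.14 (SE 0.08) did not pass, with a limma adjusted p of 0.405 and a 95% interval of -0.06 to 0.34, and was 0.084 without hSRY-ON replicate 3. Hspb1, known as HSP27 or HSP25, read 6.70, 7.26 and 7.25 in hSRY-OFF and 7.47, 7.34 and 7.31 in hSRY-ON. The hSRY-ON values again lay wholly above, and hSRY-OFF replicate 1 stood lowest, apart from the other 5 arrays. The difference was 0.30 (SE 0.16) with a limma adjusted p of 0.329, and its interval of -0.08 to 0.68 included 0. It was 0.12 without hSRY-OFF replicate 1 and 0.15 without background correction.

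The probe named for Hspa1a, a strongly heat-inducible HSP70, read 6.85, 6.81 and 6.33 in hSRY-OFF and 6.60, 7.03 and 6.63 in hSRY-ON. The groups overlapped throughout. The difference was 0.09 (SE 0.18, 95% interval -0.33 to 0.51), with a limma adjusted p of 0.817. Its sign rested on single arrays, since the difference was -0.078 without hSRY-OFF replicate 3 and -0.049 without hSRY-ON replicate 2.

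**Figure D2:**
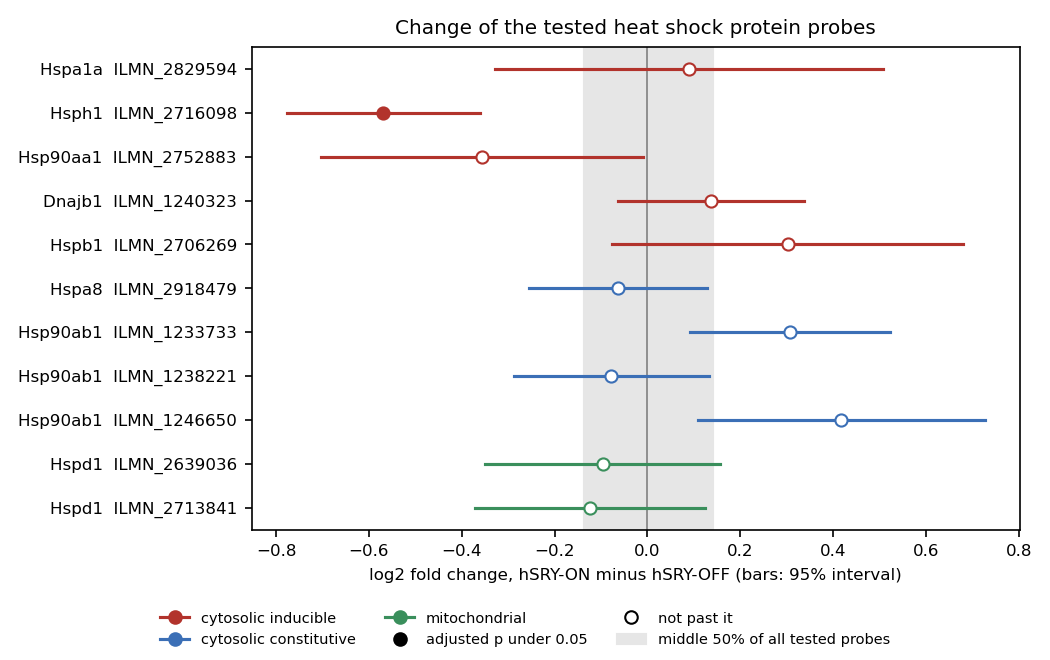
Log2 fold change of the 11 tested member probes, hSRY-ON minus hSRY-OFF, with 95% intervals as bars, grouped by colour into cytosolic inducible, cytosolic constitutive and mitochondrial genes; the grey band holds the middle 50% of all tested probes (-0.14 to 0.14). Hsph1, the filled point at -0.57, is the 1 probe past an adjusted p of 0.05, and the Hsp90ab1 probes fall on both sides of 0.

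Of the constitutive cytosolic genes, Hspa8 was close to level between the groups. Hspa8 encodes HSC70, the HSP70 present in unstressed cells. It read 14.17, 14.26 and 14.19 in hSRY-OFF and 14.23, 14.14 and 14.06 in hSRY-ON, and the groups overlapped. Its raw signals, 17276 to 20186, were below the brightest probe of each array (44986 to 49293). The difference was -0.06 (SE 0.08, limma adjusted p 0.699), and the 95% interval of -0.26 to 0.13 bounds the change of this probe between 0.838 and 1.09 times the hSRY-OFF level. The difference ran from -0.023 without hSRY-ON replicate 3 to -0.11 without hSRY-ON replicate 1.

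Hsp90ab1, the HSP90 of unstressed cells, had 3 probes that did not move alike. ILMN_1233733 read 12.11, 12.05 and 12.03 in hSRY-OFF and 12.23, 12.47 and 12.41 in hSRY-ON, wholly above. Its difference was 0.31 (SE 0.09, 95% interval 0.09 to 0.52, limma adjusted p 0.123). ILMN_1246650 read 10.79, 11.06 and 10.73 in hSRY-OFF and 11.49, 11.18 and 11.16 in hSRY-ON. These values too lay wholly above, with a difference of 0.42 (SE 0.13, 95% interval 0.11 to 0.73, limma adjusted p 0.139). ILMN_1238221 read 13.99, 13.96 and 13.87 in hSRY-OFF and 13.80, 14.00 and 13.80 in hSRY-ON. Here the groups overlapped, and the difference was -0.08 (SE 0.09, 95% interval -0.29 to 0.13, limma adjusted p 0.668), running from -0.043 without hSRY-ON replicate 3 to -0.14 without hSRY-ON replicate 2.

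The disagreement between the Hsp90ab1 probes was itself compared, array by array. The signal of ILMN_1233733 relative to ILMN_1238221 was 0.38 higher on the log2 scale in hSRY-ON, and the 3 hSRY-ON values of this ratio lay apart from the 3 hSRY-OFF values. ILMN_1246650 relative to ILMN_1238221 was likewise higher, by 0.50, without overlap. In both cases the two-sided exact permutation p was 0.1, the smallest that 3 against 3 arrays can give, and 0.2 after Benjamini-Hochberg adjustment over the 4 pairs of probes compared. The 2 probes that were higher in hSRY-ON differed from each other by 0.11 (exact permutation p 0.5). Where each probe lies on the Hsp90ab1 transcript was not analysed here, and no single direction can be given for the gene.

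The mitochondrial and endoplasmic reticulum members did not pass the test or were not measured. Hspd1 had 2 probes, of which ILMN_2639036 read 10.70, 10.98 and 10.92 in hSRY-OFF and 10.72, 10.69 and 10.91 in hSRY-ON. Its difference was -0.10 (SE 0.11, limma adjusted p 0.655). The second, ILMN_2713841, read 10.88, 10.53 and 10.70 against 10.55, 10.63 and 10.57, a difference of -0.12 (SE 0.11, limma adjusted p 0.546). Single arrays moved both values, the first from -0.039 without hSRY-OFF replicate 2 to -0.18 without hSRY-OFF replicate 1 and the second from -0.033 without hSRY-OFF replicate 1 to -0.21 without hSRY-OFF replicate 2. The groups overlapped on both probes, and the probes differed from each other by 0.03 in their change (exact permutation p 1). The Hspa5 probe, ILMN_1255561, was not detected on any array, with raw signals of 165.7 to 191.2 and detection p-values from 0.0614 to 0.395. Since BiP is an abundant chaperone of every cell, this is a bound on the probe rather than a level of the gene.

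Patterns over the 6 arrays were set beside those of the 12715 probes detected on every array. The closest to Hsph1 were G3bp1 (Pearson r 0.999), Puf60 (0.998) and Prdx3 (0.997). G3bp1, a core protein of stress granules, had a log2 fold change of -0.34 (limma adjusted p 0.0717) and Prdx3, a mitochondrial peroxidase, one of -0.40 (limma adjusted p 0.0595), whereas Puf60, a splicing factor, differed by -0.09. In all, 306 probes had an r above 0.95 with Hsph1. For the Hsp90ab1 probe ILMN_1246650 the closest were Med1 (0.993), B4galt3 (0.990) and Tmem2 (0.989), with 59 probes above 0.95. These correlations over 6 arrays that fall into 2 groups are descriptions.

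Beyond the 10 genes, 99 further chaperone and co-chaperone genes were read by list. Of these, 91 had a probe and 75 were tested, taking the probe with the highest mean signal for each gene. In hSRY-ON 33 were higher and 42 lower, with a median of -0.03. Called were 2 genes, or 2.67% of the 75, close to the 2.17% of all probes, and 23 had an unadjusted p under 0.05, against 20.9% of all tested probes.

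The genes called were Hsf1, which fell, and Fkbp5, which rose. Hsf1 encodes the heat shock factor itself. It read 11.15, 11.17 and 11.03 in hSRY-OFF and 10.66, 10.69 and 10.69 in hSRY-ON, with means of 11.12 ± 0.08 and 10.68 ± 0.02 (SD, n = 3). The hSRY-ON arrays lay wholly below, with a log2 fold change of -0.44 (SE 0.08, limma adjusted p 0.0422), or 0.738 times the hSRY-OFF level. Leaving out any 1 of the 6 arrays ended this call, with limma adjusted p-values between 0.0569 (without hSRY-ON replicate 3) and 0.144 (without hSRY-OFF replicate 2). The Hsf2 and Hsf4 probes did not meet the detection rule, and Hsbp1, which binds and restrains HSF1, differed by 0.10 (limma adjusted p 0.479).

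Fkbp5 is a co-chaperone of HSP90 in steroid receptor complexes and a well-known target of the glucocorticoid receptor. It read 8.46, 8.71 and 8.62 in hSRY-OFF and 9.55, 9.34 and 9.22 in hSRY-ON. The hSRY-ON arrays lay wholly above, with means of 8.60 ± 0.13 and 9.37 ± 0.17 (SD, n = 3). The log2 fold change was 0.77 (SE 0.11, limma adjusted p 0.0325), or 1.71-fold. The call held without hSRY-ON replicate 3 (limma adjusted p 0.0301) and ended without hSRY-OFF replicate 1, 2 or 3 (0.0963, 0.109 and 0.0944) and without hSRY-ON replicate 1 or 2 (0.0848 and 0.0734).

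**Figure D3:**
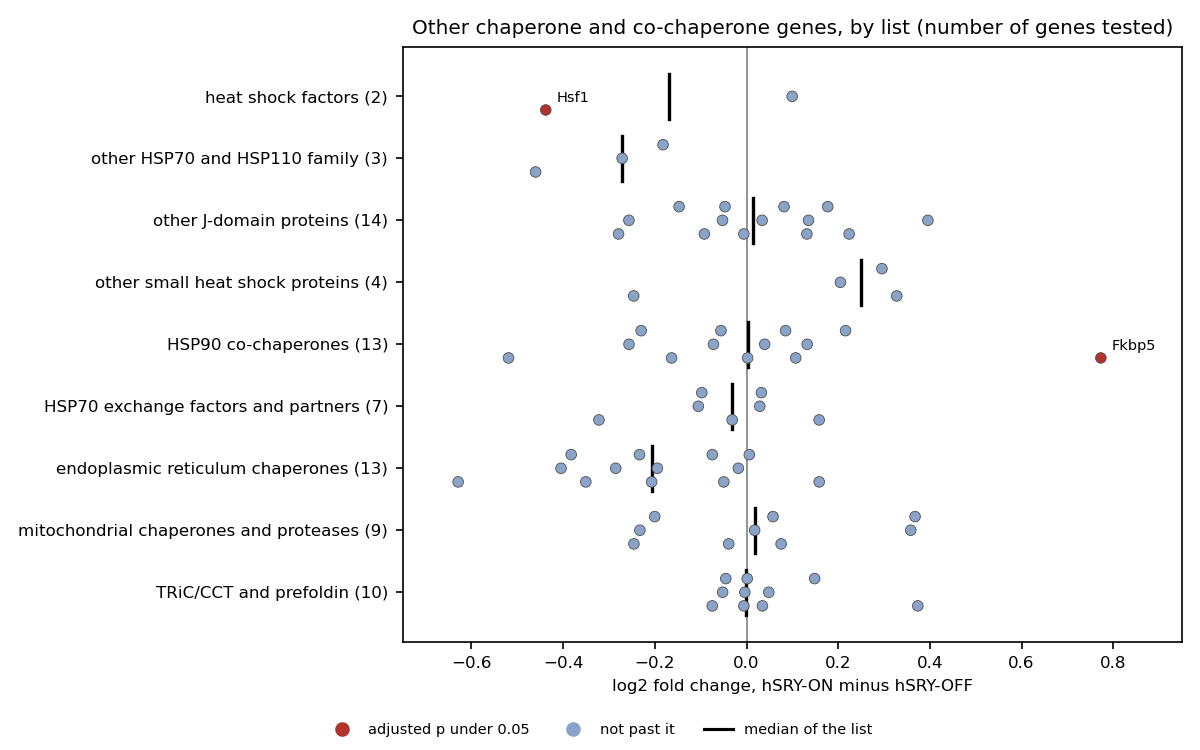
Log2 fold change, hSRY-ON minus hSRY-OFF, of the 75 tested genes of 9 further chaperone lists, 1 point for each gene, with the number of genes tested in brackets; black lines are list medians and red points passed an adjusted p of 0.05. Hsf1 at -0.44 and Fkbp5 at 0.77 are the called genes, and 11 of the 13 endoplasmic reticulum chaperones lie below 0.

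Among the 13 HSP90 co-chaperones tested, 5 had an unadjusted p under 0.05 (20.9% of all tested probes did), in both directions. That count was between 2 and 5 when 1 array was left out. Of the 13 genes 7 were higher and 6 lower, and the median of 0.0025 had no settled sign. It was -0.014 with median scaling, -0.0030 with cyclic loess, and -0.0019, -0.025 and -0.064 without hSRY-OFF replicate 2, hSRY-OFF replicate 3 and hSRY-ON replicate 3. The lowest was Chordc1, an HSP90-binding protein of the CHORD family, at -0.52 (SE 0.11). It read 10.97, 10.92 and 10.85 in hSRY-OFF and 10.22, 10.57 and 10.39 in hSRY-ON, wholly below, with a limma adjusted p of 0.0566. It was called in 5 of the 14 alternative settings, with adjusted p-values from 0.000391 to 0.156. A dim Cdc37l1 probe, not the one counted, read 0.85 (limma adjusted p 0.0977), against 0.04 for the counted probe and -0.02 for another. The dim probe was detected on 1 hSRY-OFF array and 3 hSRY-ON arrays, and so was tested through the group where it is high.

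The endoplasmic reticulum chaperones gave the most one-sided counts of the 6 lists with 7 or more tested genes, although limma called none of them. Of 13 tested genes 11 were lower and 2 higher, with a median of -0.21, and 7 had an unadjusted p under 0.05 (20.9% of all tested probes did). The latter count was 4 without hSRY-OFF replicate 3, 7 without hSRY-ON replicate 3 and 5 without any other 1 array. Calr, the calcium-binding lectin chaperone calreticulin, read 11.31, 11.46 and 11.60 in hSRY-OFF and 10.78, 11.20 and 10.50 in hSRY-ON, a difference of -0.63 (SE 0.18, limma adjusted p 0.115). Its groups did not overlap, nor did those of Hsp90b1, the HSP90 of this compartment (-0.29, limma adjusted p 0.12), or of Pdia4, a disulfide isomerase (-0.35, limma adjusted p 0.137). In all, the groups did not overlap for 6 of the 13 genes, where this held for 27.7% of all tested probes. Creld2, a secreted stress-response protein of the compartment, was lower on both of its probes, with differences of -0.40 and -0.39 (limma adjusted p 0.0861 and 0.0648). The highest was Dnajb9, a J-domain partner of BiP, at 0.16 (limma adjusted p 0.458). Between 10 and 12 of the 13 genes were lower under every alternative processing, of which between 0 and 4 were called. The count of 4 came without background correction and with a trended robust prior of limma, which called 1317 and 1447 of all 14215 tested probes.

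The other lists were mixed. The 4 tested small heat shock proteins ran from -0.25 for Cryab, αB-crystallin, to 0.33 for Hspb8, with 3 higher and none called by limma and 2 below 0.05 before adjustment. The 3 other HSP70 genes that were tested were all lower, from -0.46 for Hspa12b, an HSP70 relative of endothelium (limma adjusted p 0.115), to -0.18 for Hspa2, with none called and 1 at an unadjusted p under 0.05. Between them, Hspa12a (-0.27) was detected on 2 hSRY-OFF arrays and 1 hSRY-ON array and lay near the background. Of 14 J-domain proteins 7 were higher and 7 lower, from -0.28 for Dnajb5 to 0.40 for Dnajb4, none called and 4 at an unadjusted p under 0.05 (2 without hSRY-OFF replicate 3 or hSRY-ON replicate 1). The counts at an unadjusted p also moved with single arrays for the small heat shock proteins, to 1 without hSRY-ON replicate 2, and for the other HSP70 genes, to 2 without that array.

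The 7 HSP70 exchange factors and partners ran from -0.32 for Bag4 to 0.16 for Bag6, none called and 1 at an unadjusted p under 0.05. The 9 mitochondrial chaperones and proteases ran from -0.25 for Clpx to 0.37 for Grpel2, though the other tested Clpx probe read 0.13 (limma adjusted p 0.438), with none called and 2 at an unadjusted p under 0.05. That count was 0 without hSRY-OFF replicate 3 and 1 without hSRY-OFF replicate 2, hSRY-ON replicate 1 or hSRY-ON replicate 2. Hspe1, the HSP10 lid of the Hspd1 barrel, differed by 0.36 (SE 0.23, limma adjusted p 0.414) with overlapping groups. The 10 subunits of TRiC, the cytosolic folding chamber, and of prefoldin, which feeds it, divided into 5 higher and 5 lower (3 and 7 with median scaling, 8 and 2 without hSRY-ON replicate 2), from -0.07 for Pfdn1 to 0.37 for Vbp1, and none had an unadjusted p under 0.05 (1 without hSRY-OFF replicate 3). The dimmer of the 2 Tcp1 probes, not the one counted, read 0.32 (unadjusted p 0.0448, limma adjusted p 0.227) against -0.05 for the other.

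Markers of other cell types moved along the same contrast, and in whole brain fewer cells of a type cannot be told apart from less RNA per cell. Neuronal markers were present in both groups, with 0 of 6 tested called by limma (0 at an unadjusted p under 0.05). Their summed signal, the sum of normalized values taken back from the log2 scale, was 56408 to 63164 in hSRY-OFF and 61550 to 62934 in hSRY-ON. Beside the lower Hsph1 and Hsf1, all 8 tested markers of mitotic cells were lower and 6 were called (2.17% of all tested probes were), with a summed signal of 3568 to 4093 in hSRY-OFF and 1852 to 2466 in hSRY-ON. All 8 myelin markers were lower and 2 were called (31666 to 40120 against 24127 to 24946). Of 7 astrocyte markers 5 were lower and 2 called, Gfap and Aqp4 (43416 to 43715 against 41843 to 47435). Beside Hspa12b, 5 of 8 endothelial markers were lower and 3 higher, with none called (7858 to 8319 against 6775 to 7511). The 6 at an unadjusted p under 0.05 (4 without hSRY-OFF replicate 3, hSRY-ON replicate 1 or hSRY-ON replicate 2) ran both ways, with Ly6c1 (0.64) and Flt1 (0.49) higher and the other 4 lower. Beside the higher Fkbp5, 6 of 7 choroid plexus markers were higher and 1 was called (15342 to 18356 against 18811 to 23437), where Kl, among the higher, was detected on the hSRY-ON arrays alone and so was tested through the group where it is high. Among the 6 choroid plexus markers with detection p-values under 0.01 on all 6 arrays 5 were higher. Of 7 microglial markers 5 were higher with none called (2350 to 2636 against 2822 to 3001), and 1 was at an unadjusted p under 0.05, or 3 without hSRY-OFF replicate 2 and 2 without hSRY-ON replicate 2 or 3. Of 5 pericyte and smooth muscle markers 3 were lower (1781 to 1847 against 1629 to 1854), and of 4 erythroid markers 3 were lower (32650 to 37127 against 29212 to 36514), with none called in either and 1 and 0 at an unadjusted p under 0.05, or between 0 and 1 in each when 1 array was left out. Without any 1 array other than hSRY-ON replicate 3, and with the replicate block, limma called 0 of the mitotic, myelin, astrocyte and choroid plexus markers, while all 8 mitotic markers stayed lower at an unadjusted p under 0.05. The part of these cell types in the changes of the chaperone genes was not tested.

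**Figure D4:**
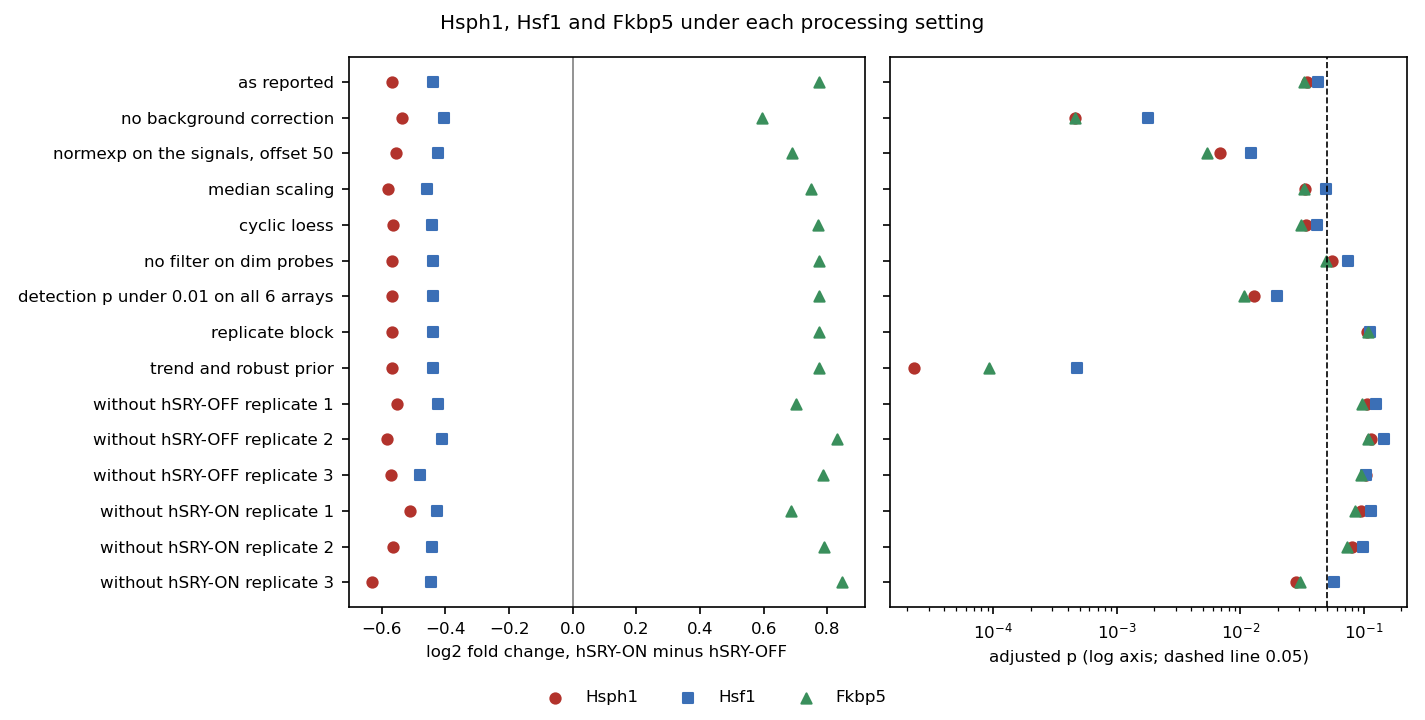
Log2 fold change (left) and limma adjusted p on a log axis (right) of Hsph1, Hsf1 and Fkbp5 under the processing used here and 14 alternatives, with the dashed line at 0.05. The fold changes stay between -0.63 and -0.51 for Hsph1, between -0.48 and -0.41 for Hsf1 and between 0.60 and 0.85 for Fkbp5, while the adjusted p crosses the line.

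Across 14 alternative settings each of Hsph1, Hsf1 and Fkbp5 kept its direction and an unadjusted p under 0.05. At an adjusted p under 0.05 Hsph1 was called in 7 of the 14, Hsf1 in 6, Fkbp5 in 8 and Chordc1, not called as processed here, in 5. The Hsp90ab1 probes ILMN_1233733 and ILMN_1246650 joined Hsph1 when background correction was left out (limma adjusted p 0.0204 and 0.0180) and when the prior variance of limma followed the signal level with robust weights (0.00381 and 0.00864).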

How the data were processed

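Total RNA of whole brain from 3 hSRY-OFF and 3 hSRY-ON male mice had been labelled as biotinylated cRNA and hybridised to Illumina MouseRef-8 bead arrays, with 1 array per mouse. The authors deposited the mean bead intensity of each probe without normalization, and a detection p-value per probe and array that the authors deposited beside it, both of them exported by the scanner's software. The study's own normalization used the package TCC with settings not given in the sources used here, and limma is listed in the submitters' processing notes. The number of arrays limits the precision. The limma p-values set the difference between the groups against the variance within them, moderated by the variances of all tested probes.

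Groups came from the sample titles. Negative controls were inferred from the steps of the detection p-values (798 controls), and signals were background corrected with normexp (limma 3.58.1 in R 4.3.3, offset 16), taken to log2 and quantile normalized. Probes that reached a detection p-value below 0.05 on 3 or more of the 6 arrays were fitted with lmFit and eBayes, two-sided, with group as the sole term, and called at a Benjamini-Hochberg adjusted p under 0.05 over 14215 probes. The change of 2 probes of 1 gene was compared by an exact permutation test (SciPy 1.17.1). The fit was tested on simulated data before use. Alternatives were no background correction, normexp without the inferred controls at an offset of 50, median scaling and cyclic loess. Others were different detection filters, the replicate number as a block, a trended robust prior, and each array left out. Figures were drawn with matplotlib 3.10.9. Every member probe was described. Of the further lists, genes called and the highest and lowest gene were named, by the probe with the highest mean, together with the 3 probes most alike in pattern to each of the 2 member probes with the largest change. Hsbp1, Hspa12a, Cdc37l1, Hsp90b1, Pdia4, Creld2, Hspe1, Tcp1 and the cell type markers Gfap, Aqp4, Ly6c1, Flt1 and Kl were named after their values were seen. The members and the lists were chosen with earlier results of these data known. Motifs were counted in RefSeq windows of GRCm38.p6, a build used for the windows alone.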

Additional observations from a re-analysis of the deposited data

How the results depend on the processing

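The directions of the 11 member probes held under all 14 alternatives, apart from Hspa1a. Its difference turned to -0.078 without hSRY-OFF replicate 3 and to -0.049 without hSRY-ON replicate 2, and reached 0.18 without hSRY-OFF replicate 1. The median of -0.06 stayed negative but moved, to -0.048 with median scaling and -0.044 with cyclic loess. It ran from -0.07 to -0.02 when an array was left out. The number of calls was less stable. Against 308 of all probes and 1 member probe, there were 1317 and 3 without background correction and 1447 and 3 with a trended robust prior. There were 860 and 1 with normexp without the inferred controls at an offset of 50. Detection p-values under 0.01 on all 6 arrays gave 705 and 1. Leaving out the detection filter, which adds dim probes to the adjustment, gave 123 and 0. Leaving out 1 array gave between 0 and 417 calls over all probes and between 0 and 1 among the members. Same-numbered arrays deviated together weakly (correlations of 0.0404, 0.0294 and 0.0251). All pairs with different numbers had negative correlations, from -0.0230 to -0.0054. The same-numbered arrays were thus the better matched, though weakly, and the numbers were not taken as pairs in the fit reported. With the replicate number as a block 0 probes were called in all (2906 at an unadjusted p under 0.05) and 0 among the members (4 at an unadjusted p under 0.05), and Hsph1 had an adjusted p of 0.105. Probes near background, such as those of Hspa5 and the second of Hsp90aa1, limit what the arrays can show for those genes.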
